A study of Mus musculus with 155 samples.

Results

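The cells compared here were sorted as double positive for a GFP reporter of Gad67 and a Tomato reporter of Olig2 (population OligNBL) and, as the other arm, as GFP-positive neuroblasts of healthy mice (population NB). They were chosen by the population name in the sample labels, which gave 40 OligNBL and 37 NB cells, 77 of the 155 cells of the study. Polyadenylated RNA of each cell was read by SMART-Seq2, a protocol for single cells that covers whole transcripts. All cells came from the subventricular zone, a germinal layer beside the lateral ventricle, and from the corpus callosum, a white matter tract, of mice aged 8 to 10 weeks. NB mice carried CB6-Tg(Gad1-EGFP)G42Zjh/J and were healthy and not injected. OligNBL mice were CB6-Tg(Gad1-EGFP)G42Zjh/J crossed with Olig2-tdTomato TH39Gsat/Mmcd. The GFP transgene is driven by the Gad1 promoter and the Tomato transgene by Olig2 sequence, so the gates report the activity of these promoters. The labels state 5 mice for each condition without tying a cell to a mouse.

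The lesion label of the OligNBL cells is in conflict. Their characteristics and treatment text place all 40 in demyelinated mice, 6 days after injection of LPC, a lipid that strips myelin. Their titles and the deposited description table mark the same 40 cells as control. Strain, reporter gate and the stated lesion differ together between OligNBL and NB, so their parts in any difference cannot be told apart. The populations are called OligNBL and NB throughout, and no difference is described as an effect of the lesion.

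Neuroblasts of the subventricular zone are immature, migrating cells that carry microtubule proteins such as doublecortin and normally become inhibitory interneurons of the olfactory bulb. Oligodendrocyte progenitors are the dividing precursors of myelinating cells and are recognised by the growth factor receptor Pdgfra and the proteoglycan NG2, encoded by Cspg4. Olig2 is a transcription factor of the oligodendrocyte lineage that some progenitors of the subventricular zone also carry, and Gad1 encodes Gad67, an enzyme that makes the transmitter GABA. A double-positive cell thus holds a reporter of each lineage. The question addressed by the comparison is which genes of either lineage such cells held, set beside healthy neuroblasts.

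Each value is described over cells. A level is the mean of log2(signal + 1) with the SD between cells (n = 40 OligNBL and 37 NB), and a difference is the OligNBL level minus the NB level on that scale. A gene is called present in a cell when it ranks within the top 500 genes of that cell, which could be read in 40 OligNBL and 35 NB cells. Since cells are not tied to mice, each population counts as 1 sample: no test was made, and SDs describe cells, not animals. The signal was nearly identical in distribution across cells (column totals from 5155880 to 5161090), which hides the sequencing depth. Genes above 0 were more numerous in OligNBL cells (720 to 1910, median 1397) than in NB cells (353 to 1592, median 1114).

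Titles name each cell CRBT and a number, the numbers run in blocks, and cells with neighbouring numbers were alike. The mean correlation between cells of the same run of 8 numbers was 0.483 in OligNBL and 0.504 in NB, against 0.288 and 0.322 between runs of the same population and 0.126 between the populations. Only the numbers 1 to 21 hold cells of both populations (4 OligNBL and 6 NB). The other 36 OligNBL cells are CRBT101 to CRBT142 and the other 31 NB cells CRBT22 to CRBT56. Among the cells numbered 1 to 21 the medians of detected genes were 1651.5 in OligNBL and 625 in NB, a wider gap than among later cells (1383.5 and 1157). For genes at least 2 apart that are described with a value, the difference among cells numbered 1 to 21 is given where its sign turned, and runs of at least 3 cells (7 OligNBL and 6 NB) show whether a difference held from run to run.

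The 4 genes given as markers of this comparison set the populations apart in different ways. Nfib, a transcription factor of the nuclear factor I family that acts in glial and neuronal maturation (GRCm38 chromosome 4, 82290173 to 82705750), ranged from 4.11 to 18.14 in OligNBL cells, with a median of 9.91. In NB cells Nfib ranged from 0 to 8.84, with a median of 0.93. It was present in 40 of 40 OligNBL cells and 6 of 35 NB cells, and the levels were 9.97 ± 3.76 and 1.74 ± 2.42, a difference of 8.23. The ranges of single cells overlapped, whereas the means of the 7 OligNBL runs (7.23 to 12.43) all lay above those of the 6 NB runs (0.56 to 3.73).

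Sp8, a zinc finger factor of neuroblasts bound for the olfactory bulb (chromosome 12, 118846329 to 118852576), went the other way. It ranged from 0 to 12.76 in OligNBL cells, with a median of 0, and was present in 1 of 40. In NB cells it ranged from 0 to 18.99, with a median of 8.88, and was present in 23 of 35. The difference was -7.03, and it was -9.41 among the cells numbered 1 to 21. NB runs were uneven, with means from 1.12 at cells CRBT22 to CRBT24 up to 11.13 at cells CRBT34 to CRBT40, so the low NB run overlapped the OligNBL runs (0.00 to 2.60).

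Pdgfra and Cspg4 were high in part of the OligNBL cells. Pdgfra, the receptor for platelet-derived growth factor A on oligodendrocyte progenitors (chromosome 5, 75152292 to 75198215), ranged from 0 to 18.99 in OligNBL cells (median 1.74) and from 0 to 6.13 in NB cells (median 0). It was present in 17 of 40 OligNBL and 3 of 35 NB cells, and all 3 of these NB cells were numbered CRBT1 to CRBT6. Cspg4 (chromosome 9, 56865033 to 56899870) ranged from 0 to 19.50 in OligNBL cells (median 2.06) and up to 8.19 in NB cells (median 0), and was present in 12 and 1 cells. The differences were 3.38 for Pdgfra and 3.27 for Cspg4, and in neither gene did the runs of the populations separate. Among the cells numbered 1 to 21 the Pdgfra difference was 0.83, short of 2, and that of Cspg4 was 7.13. Exons of Pdgfra overlap Gm42802, Gm42803 and Mir7025 in the annotation. Without the OligNBL cells CRBT105 to CRBT112 the Pdgfra difference was 2.25.

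**Figure D1:**
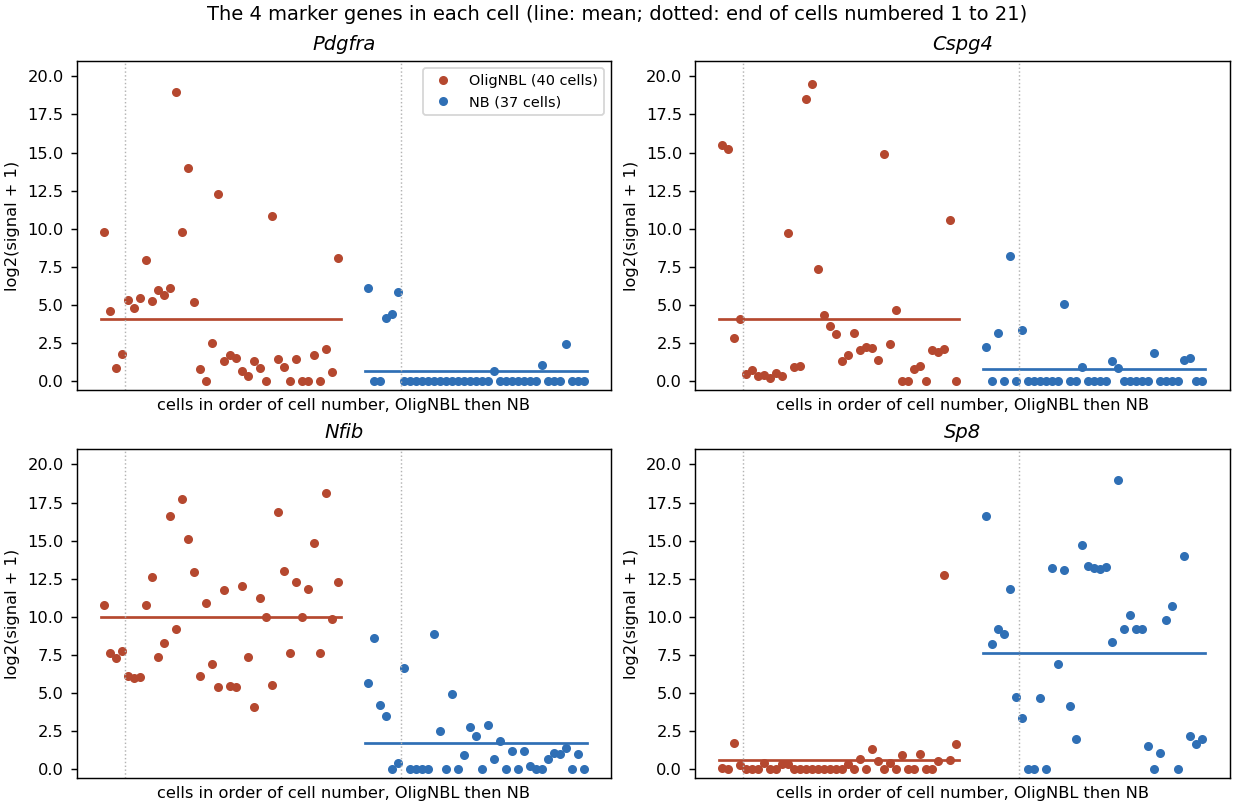
Level of Pdgfra, Cspg4, Nfib and Sp8 in each cell, as log2(signal + 1), for the 40 OligNBL and 37 NB cells. Points are cells in order of cell number, solid lines mark the mean of each population and dotted lines the end of the cells numbered 1 to 21. Nfib lies above 4 in every OligNBL cell, Sp8 is at or near 0 in nearly all of them, and Pdgfra and Cspg4 are spread from 0 to above 18.

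Over the whole table of 3422 genes, 438 had a level at least 2 higher in OligNBL (12.8%) and 411 a level at least 2 lower (12%), and the median difference was 0.08. Counts of genes in the lists that follow are read against these shares. Of the 849 genes called (24.8%), 646 (76.1%) had the same sign among the cells numbered 1 to 21, 355 of those higher and 291 of those lower. In that range 489 genes were at least 2 higher (14.3%) and 242 at least 2 lower (7.07%), and among later cells 507 (14.8%) and 459 (13.4%). The OligNBL runs all lay above the NB runs for 152 genes (4.44%) and all below them for 111 genes (3.24%). Runs were apart for 26% of the genes at least 2 higher and 25.8% of those at least 2 lower. Each of these counts treats genes as they stand in the deposited table, and how its genes were selected is unknown from the sources used here.

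**Figure D2:**
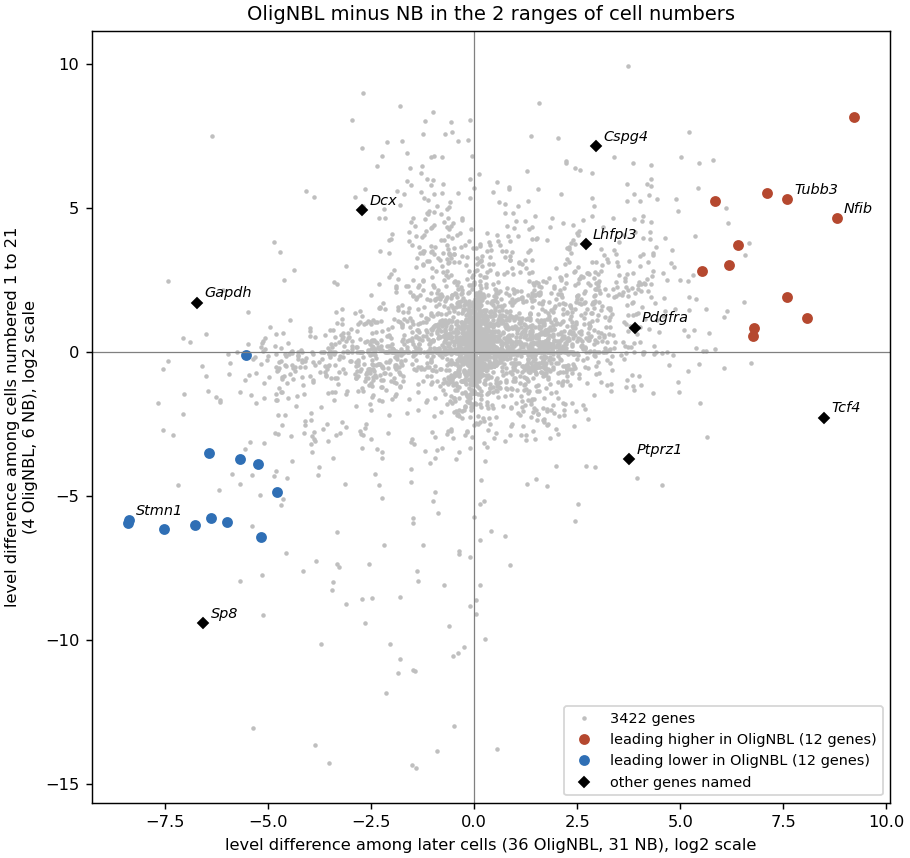
Difference of levels (OligNBL minus NB, log2 scale) of each of the 3422 genes among later cells (36 OligNBL and 31 NB, horizontal axis) and among cells numbered 1 to 21 (4 and 6 cells, vertical axis); colours mark the 12 leading genes each way. The leading genes lie in the quadrants of equal sign by the rule that chose them, and Tcf4, Ptprz1, Gapdh and Dcx lie in quadrants of opposite sign.

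The 12 leading higher genes, those with the largest gain in presence, were of mixed function. Tubb3, the beta-tubulin of young neurons (chromosome 8, 123411424 to 123422015), ranged from 0 to 16.42 in OligNBL cells (median 9.91) and from 0 to 9.5 in NB cells (median 0). It was present in 38 of 40 and 4 of 35 cells, at levels of 8.81 ± 4.07 and 1.56 ± 2.32, a difference of 7.25. Plxna2, a semaphorin receptor of migrating and outgrowing cells (chromosome 1, 194618218 to 194816869), ranged from 1.54 to 18.99 (median 6.59) against 0 to 6.14 (median 0). It was also present in 38 and 4 cells, with a difference of 6.89. For both genes every OligNBL run lay above every NB run.

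Gpm6b, a membrane proteolipid of neurons and oligodendrocytes, was present in 30 of 40 OligNBL and 0 of 35 NB cells (a count of 0 allows up to 8.57%). Its level was 6.09 ± 4.71 in OligNBL and 0.24 ± 0.71 in NB. Snrpb, a core protein of the spliceosome, was present in 31 and 0 cells, with a difference of 6.07. Both stood above 3 in their difference among the cells numbered 1 to 21 (3.02 for Gpm6b and 3.71 for Snrpb).

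Map1lc3b, whose protein coats autophagosomes, was present in 34 and 1 cells with a difference of 6.96, and the unnamed gene 4833439L19Rik in 34 and 3 cells with a difference of 8.92. Matr3, an RNA-binding protein of the nuclear matrix, was present in 32 and 3 cells with a difference of 5.97. Rrp7a, a ribosome assembly factor, was listed at 0 in all 37 NB cells and was present in 27 OligNBL cells at a level of 6.13 ± 4.37. Ubap1, a part of the endosomal sorting machinery, was present in 26 and 0 cells, and Snapc3, a factor for small nuclear RNA transcription, in 27 and 0 cells. Each of these 6 genes was present in at least 26 OligNBL cells and at most 3 NB cells. The differences of Map1lc3b (1.88), Matr3 (0.81), Rrp7a (0.54) and Ubap1 (1.16) were under 2 among the cells numbered 1 to 21.

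Golga7, a Golgi protein of the palmitoylation machinery, was present in 29 and 0 cells but its runs overlapped. It was the only one of the 12 leading higher genes without separated runs, and the 12 were picked on these same cells. The lowest OligNBL run mean was 0.53 for Golga7, and was also low for Ubap1 (0.32) and Rrp7a (0.54). The highest NB run mean was 2.60 for Golga7, 0.07 for Ubap1 and 0.00 for Rrp7a. Map1lc3b, 4833439L19Rik, Golga7, Matr3, Rrp7a and Snapc3 each have an exon that overlaps another gene in GENCODE vM21, and the sources used here do not give the strand used in counting, so their values are uncertain.

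The leading lower genes were held by most NB cells. Stmn1, stathmin, which destabilises microtubules in immature neurons (chromosome 4, 134468320 to 134473843), ranged from 0 to 9.09 in OligNBL cells (median 0.38) and from 0 to 16.20 in NB cells (median 10.09). It was present in 3 of 40 and 34 of 35 cells, with levels of 1.18 ± 1.77 and 9.12 ± 3.74. The difference was -7.94 over all cells and -5.84 among those numbered 1 to 21, and the runs did not overlap (at most 3.27 in OligNBL, at least 6.65 in NB). Stmn1 overlaps a small RNA gene, Gm23634, in the annotation.

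Plppr3, a membrane protein of growing axons, was present in 6 and 34 cells with a difference of -6.60. Tgoln1, a cargo receptor of the trans-Golgi network, ranged from 0 to 4.71 in OligNBL cells and from 1.56 to 20.19 in NB cells, and was present in 2 and 30 cells. Clic4, an intracellular chloride channel protein, was present in 3 and 30 cells with a difference of -7.37. All 3 genes had separated runs.

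Genes of mitochondria and RNA processing were also among the leading lower genes. Dnajc11, a co-chaperone at mitochondrial membranes, was present in 2 and 32 cells, and Polg2, the accessory subunit of the mitochondrial DNA polymerase, in 3 and 31 cells. Sf3b1, a spliceosome component that recognises branch points, was present in 6 and 34 cells, but its runs overlapped (up to 5.10 in OligNBL, from 4.86 in NB). Ccnl2, a cyclin linked to splicing, was present in 4 and 30 cells, with a difference of -4.82 over all cells and -0.09 among the cells numbered 1 to 21. Plppr3, Tgoln1 and Polg2 have exons that overlap other genes, with the same uncertainty as above.

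**Figure D3:**
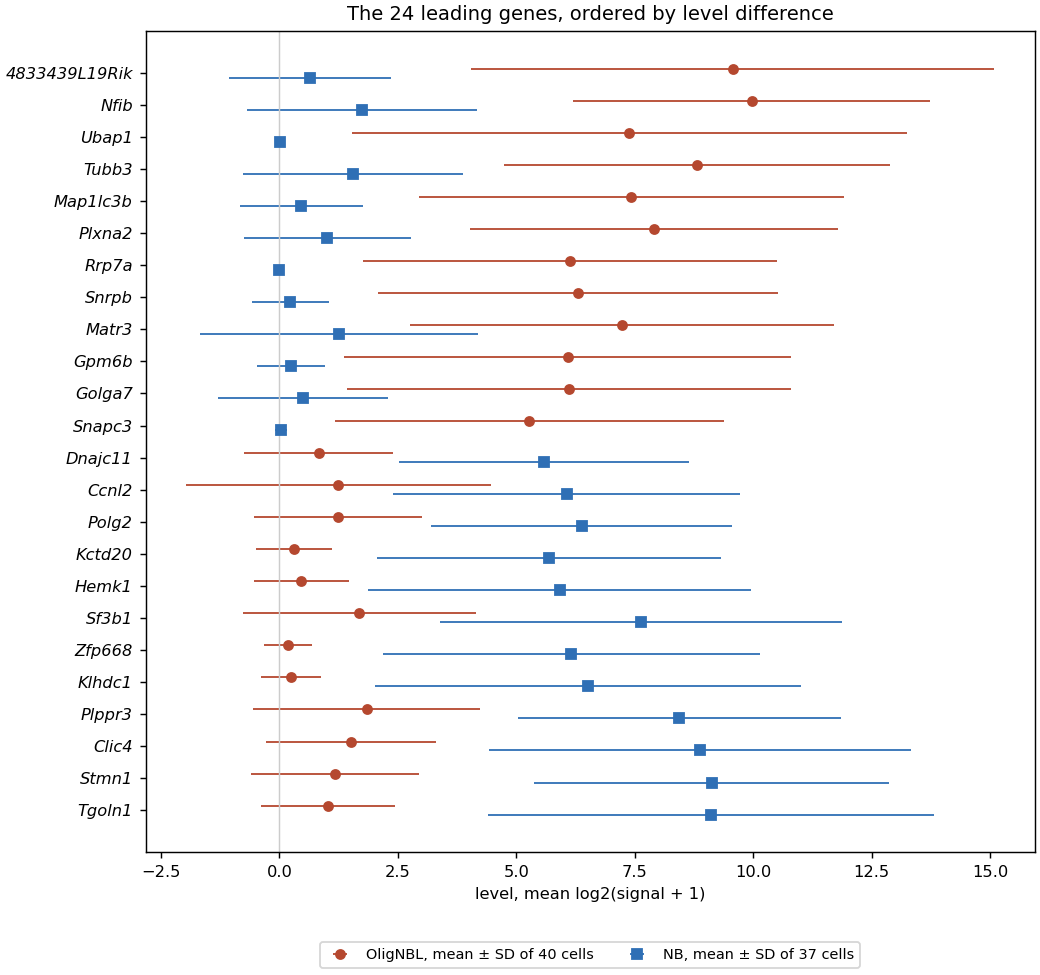
Level (mean log2(signal + 1), with SD between cells as lines) of the 12 leading higher and 12 leading lower genes in the 40 OligNBL and 37 NB cells, ordered by difference. Nfib lies at 9.97 in OligNBL and 1.74 in NB, and Stmn1 at 1.18 and 9.12.

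The remaining 4 leading lower genes, Zfp668, Klhdc1, Hemk1 and Kctd20, were each present in 27 of 35 NB cells and in 0 of 40 OligNBL cells (a count of 0 allows up to 7.5%). Zfp668 encodes a zinc finger protein, Klhdc1 a kelch-repeat protein, Hemk1 a glutamine methyltransferase acting on translation release factors and Kctd20 a BTB-domain protein. Their levels in NB were 6.15 ± 3.98, 6.51 ± 4.49, 5.92 ± 4.04 and 5.68 ± 3.63, in the order named, against at most 0.46 in OligNBL. The genes lie on 4 different chromosomes and were present largely in the same cells: 25 of 35 NB cells had all 4 and 7 had none. Pairwise Pearson correlations of log2(signal + 1) ran from 0.835 to 0.958 over NB cells and from 0.911 to 0.971 over the 77 cells, which share library preparation and normalization. The values over the 77 cells also carry the contrast between populations by which these 4 genes were picked. A further 15 genes correlated above 0.9 with Zfp668 over the 77 cells, and their correlation within NB is not given here. Zfp668, Klhdc1 and Kctd20 have exons that overlap other genes (Zfp646, Gm15561 and CT025867.1). This set was singled out after its values were seen.

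Because these 4 genes moved together from cell to cell, the 250 bases before their RefSeq starts (GRCm38.p6) are printed 5′ to 3′ on the gene's strand. Capitals mark the E-box CAGCTG, a motif bound by basic helix-loop-helix factors, which reads the same on both strands. The windows are chr7:127876837-127877086 on the minus strand for Zfp668, chr12:69241582-69241831 on the plus strand for Klhdc1, chr9:107338351-107338600 on the minus strand for Hemk1 and chr17:28952186-28952435 on the plus strand for Kctd20.
Zfp668: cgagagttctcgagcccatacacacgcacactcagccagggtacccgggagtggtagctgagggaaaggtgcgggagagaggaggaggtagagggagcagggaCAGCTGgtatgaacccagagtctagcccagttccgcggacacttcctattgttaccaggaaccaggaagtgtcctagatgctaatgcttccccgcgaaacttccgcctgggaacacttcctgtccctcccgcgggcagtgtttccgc
Klhdc1: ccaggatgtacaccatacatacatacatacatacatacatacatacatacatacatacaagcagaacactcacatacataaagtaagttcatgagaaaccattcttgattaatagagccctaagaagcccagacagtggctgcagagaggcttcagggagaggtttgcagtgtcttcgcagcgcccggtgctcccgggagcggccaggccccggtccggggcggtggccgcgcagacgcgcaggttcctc
Hemk1: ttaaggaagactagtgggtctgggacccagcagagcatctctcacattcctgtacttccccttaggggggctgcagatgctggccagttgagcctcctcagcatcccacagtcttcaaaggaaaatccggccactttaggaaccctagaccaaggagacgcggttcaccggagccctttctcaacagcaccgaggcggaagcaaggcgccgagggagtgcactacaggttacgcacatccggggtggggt
Kctd20: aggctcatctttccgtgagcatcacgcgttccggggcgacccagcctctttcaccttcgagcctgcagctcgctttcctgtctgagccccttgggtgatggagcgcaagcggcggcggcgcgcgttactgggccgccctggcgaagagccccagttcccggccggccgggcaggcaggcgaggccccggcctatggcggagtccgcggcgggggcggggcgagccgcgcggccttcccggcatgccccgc
The E-box was found only in the Zfp668 window among these 4. The longest run of bases shared by any pair was 8 to 9 long, and GC content ranged from 52.8% for Klhdc1 to 73.6% for Kctd20.

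Over windows of that length, CAGCTG was in 12.8% of 27025 RefSeq promoters, 10.3% of 2497 promoters of genes in the table, 9.37% of 331 promoters of higher genes and 8.44% of 308 promoters of lower genes. The nuclear factor I half-site TTGGCA, searched on both strands because Nfib was among the leading higher genes, was in 12.5% of all promoters and 9.65% of those in the table. It was in 11.8% of the promoters of higher genes and 5.84% of the promoters of lower genes. These shares describe letters in a window and were not tested.

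Of 21 listed genes of oligodendrocyte progenitors 8 were measured, and 4 of them (50%) were at least 2 higher in OligNBL: Pdgfra, Cspg4, Ptprz1 and Lhfpl3. None was at least 2 lower, and the median difference was 1.83 against 0.08 over all genes. The summed level of the list ranged from 3.51 to 53.5 in OligNBL cells and from 0 to 20.2 in NB cells. Lhfpl3, a membrane protein enriched in progenitors, ranged from 0 to 14.42 in OligNBL cells (median 1.27) and from 0 to 1.45 in NB cells (median 0). It was present in 15 of 40 and 0 of 35 cells. Its runs did not overlap, but only narrowly and at low values: the lowest OligNBL run mean was 0.38 and the highest NB run mean 0.21. Its exons overlap those of A930003O13Rik. With a pseudocount of 10 in place of 1, which shrinks differences of low values, Pdgfra (1.99), Lhfpl3 (1.39) and Ptprz1 (1.28) fell short of 2.

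Ptprz1, a receptor phosphatase of progenitors and glia, was present in 18 OligNBL cells and 1 NB cell, with levels of 3.52 ± 3.92 and 0.75 ± 2.29. Its difference was 2.77 over all cells and -3.73 among the cells numbered 1 to 21. The lineage factors Olig1 and Sox10 were at 0.90 and 0.58 in OligNBL, each at or below 0.14 in NB, and were present in 3 and 1 OligNBL cells. The remaining measured members, the proteoglycan gene Cspg5 and the matrix gene Tnr, differed by 0.12 and -0.21, so 4 of the 8 genes, among them surface and matrix genes as well as factors, were within 2. Olig2 itself was not analysed here.

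Progenitor genes were unevenly spread over the OligNBL runs. Pdgfra was present in 4 of 4 cells numbered CRBT101 to CRBT104 and 7 of 7 numbered CRBT105 to CRBT112, with run means of 5.88 and 9.40. At cells CRBT121 to CRBT128 it was present in 0 of 6 (mean 1.14), and at cells CRBT129 to CRBT136 in 1 of 8 (mean 1.94). Cspg4 followed another order, with its highest run means at cells CRBT10 to CRBT16 (9.40) and CRBT113 to CRBT119 (7.58) and a mean of 0.49 at cells CRBT101 to CRBT104. Ptprz1 was present in 6 of 7 cells at CRBT105 to CRBT112 and in 6 of 6 at CRBT137 to CRBT142. CRBT105 to CRBT112 thus had the highest run means of Pdgfra (9.40), Ptprz1 (6.23) and Lhfpl3 (6.63), while that of Cspg4 was elsewhere.

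At least 1 of Pdgfra, Cspg4, Ptprz1 and Lhfpl3 was present in 30 of 40 OligNBL cells (75%, exact 95% interval 58.8 to 87.3%) and 4 of 35 NB cells (11.4%, 3.20 to 26.7%). These 4 are the progenitor genes that were at least 2 higher in these same cells, so the contrast follows in part from that choice. The intervals cover counting error only and treat cells as independent, although cells of the same run were alike. They therefore do not compare the populations. With all 8 measured progenitor genes the counts were 31 of 40 and 9 of 35. At least 2 of the 4 genes were present in 19 OligNBL cells and 1 NB cell. Among the 16 OligNBL cells numbered CRBT101 to CRBT119 all 16 had at least 1 of them, against 11 of the 20 numbered CRBT121 to CRBT142, a split chosen after the values were seen. Among the cells numbered 1 to 21 the counts were the same in both populations, 3 of 4 each, which is too few to compare.

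Genes of the progenitor and neuroblast lists were also counted cell by cell. At least 1 of the 29 measured neuroblast genes was present in 40 of 40 OligNBL and 35 of 35 NB cells. The cells with both groups, 31 of 40 OligNBL (77.5%) and 9 of 35 NB (25.7%), were therefore simply those with at least 1 of the 8 measured progenitor genes. All 17 OligNBL cells with Pdgfra present also had Tubb3 present, and Nfib and Tubb3 were present together in 38 of 40 OligNBL cells and 0 of 35 NB cells. Pdgfra went with Lhfpl3 in 15 of its 17 cells, with Gad1 in 7, with Cspg4 in 5 and with Dcx in 3. Over all OligNBL cells Tubb3 was present in 38 of 40, so its pairing with Pdgfra follows its own share. Lhfpl3 was present in 15 of 40 OligNBL cells, all of them cells with Pdgfra, and Dcx in 13 of 40. In NB all 3 cells with Pdgfra had Dcx present and 0 had Tubb3. Doublets were not called, and their part in these counts was not tested.

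**Figure D4:**
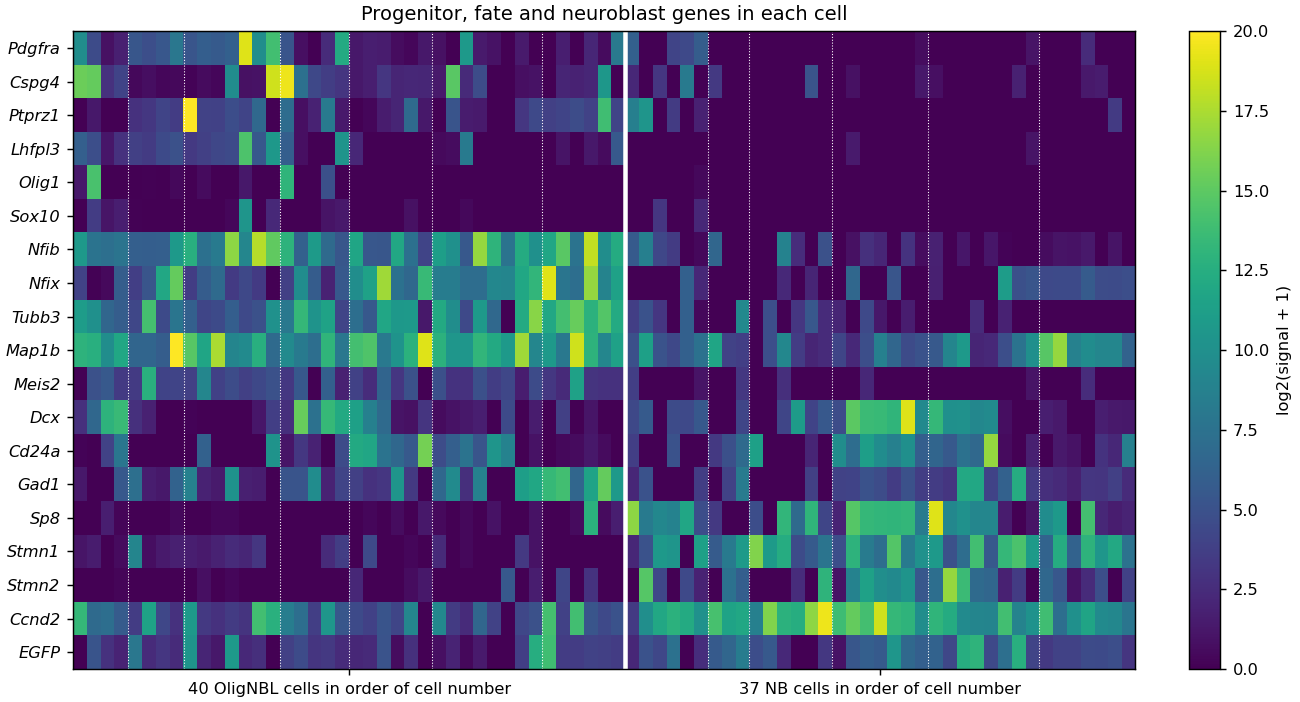
Level of lineage and reporter genes (rows) in every OligNBL and NB cell (columns, ordered by cell number), as log2(signal + 1) by colour, with dotted lines between runs and a white line between the populations. Pdgfra and Lhfpl3 are filled mainly in OligNBL cells CRBT101 to CRBT119, Nfib and Tubb3 across nearly all OligNBL cells, and Stmn1 and Sp8 mainly in NB cells.

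The neuroblast list was split. Of 36 listed genes 29 were measured, 11 of them (37.9%) at least 2 higher in OligNBL and 4 (13.8%) at least 2 lower, with a median difference of 1.16. Higher were Tubb3, Meis2, Nrep, Celf3, Nrxn3, Ncam1, Gad2, Prokr2, Tubb2b, Marcksl1 and Map1b. Lower were Sp8, Stmn1, Stmn2 and Igfbpl1. The summed level of the list ranged from 69.9 to 160 in OligNBL cells and from 51.3 to 116.1 in NB cells.

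Meis2, a homeobox factor of olfactory bulb neuroblasts, ranged from 0 to 12.71 in OligNBL cells (median 3.81) and from 0 to 3.73 in NB cells (median 0), and was present in 23 and 1 cells. Its OligNBL runs (3.33 to 6.07) all lay above its NB runs (0.13 to 1.07), and with a pseudocount of 10 its difference was 1.63. Map1b, a microtubule-associated protein of growing axons, was present in 40 of 40 OligNBL and 27 of 35 NB cells, at levels of 11.52 ± 3.54 and 6.59 ± 3.71. Nrep and Celf3, a regeneration-related protein and a neuronal splicing factor, had differences of 3.47 and 2.69. Without the OligNBL cells CRBT105 to CRBT112 the Celf3 difference was 1.77.

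Stmn2, a stathmin of growing neurites, ranged from 0 to 5.48 in OligNBL cells (median 0) and from 0 to 16.86 in NB cells (median 4.39). It was present in 2 and 19 cells, the difference was -4.68, and all OligNBL runs lay below all NB runs. The third stathmin gene measured, Stmn4, differed by 0.22, so the stathmins did not share a direction.

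Dcx, Cd24a and Sox11 differed by less than 2. Doublecortin, Dcx, was at 3.61 ± 4.66 in OligNBL and 5.46 ± 5.34 in NB and was present in 13 of 40 and 20 of 35 cells. Its difference was -1.85 over all cells and 4.92 among those numbered 1 to 21. Dcx run means went from 0.73 at cells CRBT105 to CRBT112 up to 10.22 at cells CRBT113 to CRBT119 in OligNBL, and from 1.07 at cells CRBT49 to CRBT56 up to 12.61 at cells CRBT34 to CRBT40 in NB. The spread between runs of each population was therefore wider than the difference between populations. Cd24a, a surface protein used to sort neuroblasts, was present in 17 and 18 cells (difference -0.73, and 1.54 among the cells numbered 1 to 21), and Sox11, a factor of immature neurons, in 28 and 19 cells (difference 1.16).

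Factors of glial and of neuronal fate each moved in a few members. Of 18 listed glial fate factors 7 were measured and 2 (28.6%) were at least 2 higher, Nfib and Nfix, with none lower and a median difference of 0.73. Nfix, another nuclear factor I gene, was present in 34 and 12 cells at levels of 7.82 ± 4.63 and 2.19 ± 2.81. Its difference was 5.63 over all cells and 1.22 among the cells numbered 1 to 21. Nfia, of the same family, was at 5.37 in OligNBL and 6.42 in NB, a difference of -1.05 over all cells and 2.07 among the cells numbered 1 to 21. In that range all 3 of these genes were thus higher in OligNBL.

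Of 28 listed neuronal fate factors 13 were measured, 2 of them (15.4%) at least 2 higher, Meis2 and Tcf4. Another 2 (15.4%) were at least 2 lower, Sp8 and Bcl11b. Both shares were near those over all genes (12.8% and 12%), so the counts do not set this list apart. Tcf4, a partner of basic helix-loop-helix factors, was present in 33 and 3 cells with a difference of 7.15. Among the cells numbered 1 to 21 its difference was -2.29, so the call rests on the later cells (8.48). Bcl11b, a zinc finger factor of neuronal differentiation, was present in 4 and 25 cells, with a difference of -4.49 (-1.48 among the cells numbered 1 to 21).

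Of 36 listed genes of migration and guidance 16 were measured, 6 of them (37.5%) at least 2 higher and 1 (6.25%) lower, with a median difference of 0.15. Higher were Plxna2, Plxnb2, Sema3c, Slit1, Ncam1 and Eva1c. Slit1, a secreted repellent that neuroblasts use to clear their path, was present in 19 and 0 cells with a difference of 4.66. Eva1c, a Slit-binding receptor, was present in 32 and 6 cells with a difference of 3.89. The exception was Cdh2, N-cadherin, present in 1 and 19 cells with a difference of -4.00.

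The higher and lower genes did not follow a class: the adhesion gene Ncam1 was higher (2.73), and among receptors Robo1 (-1.92) and Plxna4 (-0.24) were not. Slit1 and Cdh2 were short of 2 among the cells numbered 1 to 21, with 0.76 and -0.89. Plxna2 was the only one of these 16 genes whose runs were apart.

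The EGFP transcript was lower in OligNBL than in NB, though by less than 2, and that of TdTomato was low in both populations. EGFP was at 3.48 ± 3.30 in OligNBL and 5.19 ± 3.19 in NB and was present in 12 of 40 and 26 of 35 cells. TdTomato, the reporter that defines the double-positive gate, was at 0.31 and 0.18 and was present in 1 cell of each population, so its transcript gave no check of the gate. Gad1 (chromosome 2, 70553072 to 70602014), whose promoter drives the GFP, was at 5.53 ± 4.56 and 3.59 ± 3.26 and was present in 22 and 17 cells. Its highest run was at OligNBL cells CRBT137 to CRBT142, with a mean of 11.94 and presence in 6 of 6. Gad2, the second GABA-making enzyme, was present in 15 and 1 cells with a difference of 2.15, which was 1.57 without the OligNBL cells CRBT105 to CRBT112.

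Of 4 measured GABA genes of 10 listed, Gad2 alone was at least 2 apart. Without OligNBL cells CRBT137 to CRBT142 the Gad1 difference was 0.81 in place of 1.94, without NB cells CRBT41 to CRBT48 it was 2.91, and among the cells numbered 1 to 21 it was -0.13. The EGFP difference was -1.71, and ran from -2.20 to -0.91 when 1 run was left out. The Gad1 difference was thus nearly absent among the few cells numbered 1 to 21. Neither the Gad1 nor the EGFP difference had a settled side of 2.

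The myelinating cell genes Mbp and Trf were near 0 in both populations, while some other genes of the oligodendrocyte lists were not. Of 28 listed mature genes 23 were measured, 0 were at least 2 higher and 1 was lower (Tubb4a), with a median difference of 0.00. Mbp, the myelin basic protein gene, was at 0.04 in OligNBL and 0.06 in NB and present in no cell of either. Trf, the iron carrier transferrin, was at 0.39 and 0.40. The summed level of the list ran from 0 to 22.2 in OligNBL and from 0 to 25.6 in NB, with Mbp near 0.

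Tubb4a, a tubulin that myelinating cells share with neurons, had a difference of -2.15, which was -0.97 without the NB cells CRBT22 to CRBT24. Of 6 measured genes of newly formed oligodendrocytes (of 15 listed), Mpzl1, a glycoprotein that binds a tyrosine phosphatase, was higher (2.85) and Kif21a, a kinesin, lower (-2.01). Kif21a went to 0.64 among the cells numbered 1 to 21, and lay closer to 0 than -2 when any of 7 single runs was left out, with -1.52 without NB cells CRBT34 to CRBT40. Tcf7l2, a factor of newly formed oligodendrocytes, was at 3.30 and 4.20 and present in 10 of 40 and 22 of 35 cells, and its difference was -0.90 over all cells and 2.25 among the cells numbered 1 to 21.

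Defining markers of other cell types were few in the table. Of 19 listed astrocyte and stem cell genes 4 were measured and none was at least 2 apart. Of 14 microglial genes Itgam alone was measured, at 2.47 and 1.37, and of 10 endothelial genes Pecam1 alone. Pecam1 was at 8.11 ± 3.40 in OligNBL and 6.54 ± 3.97 in NB and was present in 38 and 32 cells. It was also present in 27 of 27 GFP-positive cells of the lesion group. In the populations labelled oligodendrocyte, O and OL, it was present in 29 of 29 and 21 of 22 cells. Its presence thus did not separate the sorted populations. Cspg4 was the only one of 8 mural genes measured, and no gene of the 10 listed for ependymal cells was. Because NG2 is also made by mural cells, the part of such cells in the Cspg4 values was not tested.

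Of 16 listed genes of mature neurons 2 were measured, the synaptic gene Snap25, at 1.71 and 0.23, and Map2, a dendritic microtubule protein. Map2 was present in 2 OligNBL and 27 NB cells with a difference of -4.99. Its direction was that of Stmn1 and Stmn2 and opposite to that of Map1b. Egfr, a receptor of transit amplifying progenitors, was near 0 in both populations (0.06 and 0.01).

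Of 25 listed S phase genes 11 were measured, none at least 2 higher and 1 lower, Rrm2. Rrm2, a subunit of ribonucleotide reductase, was present in 0 of 40 OligNBL and 18 of 35 NB cells, with levels of 0.11 ± 0.35 and 4.44 ± 4.79 and separated runs. Pcna, the replication clamp, was present in 12 and 0 cells at levels of 1.79 and 0.12, and Cdca7 in 11 and 0 cells at 2.06 and 0.09. S phase genes therefore did not share a direction. None of 5 measured genes of G2 and M phase was at least 2 apart.

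Ccnd2, the D-type cyclin of dividing neural progenitors, ranged from 0 to 14.08 in OligNBL cells (median 4.97) and from 3.41 to 19.50 in NB cells (median 11.97). Its levels were 6.23 ± 3.82 and 11.84 ± 3.18, with all OligNBL runs (4.38 to 8.30) below all NB runs (9.93 to 14.39). It was still present in 30 of 40 OligNBL cells, so the contrast was in level more than in presence. Its difference was -5.61 over all cells and -1.76 among those numbered 1 to 21. Exons of Ccnd2 overlap 9330179D12Rik and Gm43126.

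Of 17 listed glycolysis genes 7 were measured, 4 of them (57.1%) at least 2 higher and 1 (14.3%) lower, with a median difference of 2.08. Hk1, the first enzyme of the pathway, was present in 20 and 0 cells, Pkm, the last, in 20 and 0 cells, and Eno1 in 22 and 1 cells, with differences of 4.11, 3.95 and 4.12. Those of Hk1 (1.70) and Eno1 (1.23) were under 2 among the cells numbered 1 to 21, and that of Pkm was 4.61. Pfkp, a phosphofructokinase, had a difference of 2.08. Gapdh went the other way, present in 10 and 28 cells with a difference of -5.38, and was 1.70 higher among the cells numbered 1 to 21. Gapdh and Eno1 have processed copies in the mouse genome, so the sharing of their reads is uncertain.

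Of 20 listed genes of cholesterol synthesis 5 were measured. Dhcr7, a late enzyme of the pathway, was lower, with a difference of -6.18, and Insig1, which holds the pathway back, was higher (2.16, and 1.42 without the OligNBL cells CRBT105 to CRBT112). Dhcr7 differed by 0.48 among the cells numbered 1 to 21, so its call rests on the later cells.

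All 50 genes of the ribosomal protein list were measured, 13 of them (26%) at least 2 higher and 3 (6%) lower, with a median difference of 1.19. Rpl12 was present in 26 and 1 cells with a difference of 5.88, and Rps19 in 26 and 7 cells with a difference of 5.26. The median was 0.12 among the cells numbered 1 to 21 and 1.29 among later cells. Ribosomal protein genes have many processed copies, which makes single values uncertain, and 4 of them had OligNBL runs all above and 2 all below the NB runs. Of 7 mitochondrially encoded genes mt-Co1 (2.82, and 1.89 without OligNBL cells CRBT129 to CRBT136) and mt-Co3 (2.72, and 1.65 without CRBT121 to CRBT128) were higher, with a list median of 0.03.

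Of 35 listed chromatin regulators 21 were measured, 5 of them (23.8%) at least 2 higher and 7 (33.3%) lower, with a median difference of -0.37. Lower were Kdm6b, Smarce1, Chd7, Brd2, Cbx5, Hmgn1 and Hmgb1. Brd2, a bromodomain reader of acetylated histones, was present in 1 and 21 cells with a difference of -5.59 and separated runs. Cbx5, the heterochromatin protein HP1 alpha, was present in 0 and 16 cells, with a difference of -4.38 that was -2.84 without the NB cells CRBT25 to CRBT32. Both were under 2 in size among the cells numbered 1 to 21 (-1.58 and -1.67).

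Subunits of the SWI/SNF remodelling complex were on both sides. Smarce1 was lower (-6.10), while Smarca2 and Smarca4, its alternative ATPases, and Smarcc1 were higher, with 4.54 for Smarca2. Among the cells numbered 1 to 21 Smarce1 was at 0.33 and Smarca2 at -0.65, each opposite in sign to the value over all cells.

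Of 52 genes of splicing and RNA binding 11 (21.2%) were at least 2 higher and 7 (13.5%) lower, with a median difference of 0.14. Snrpe, a core spliceosome protein like Snrpb, was higher by 4.93, and Hnrnpk, an RNA-binding protein that also shuttles to the cytoplasm, was lower, at 2.87 in OligNBL and 9.62 in NB. Members of the same machinery therefore stood on either side. Of 23 genes of tubulin, actin and motors 7 (30.4%) were higher and 4 (17.4%) lower. Actg1, the cytoplasmic gamma-actin, was present in 35 and 11 cells with a difference of 5.95, and Dync1li2, a dynein subunit, was higher by 4.17 over all cells but at -1.06 among the cells numbered 1 to 21.

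Of 12 listed interferon genes 3 were measured. Ifit1, which binds viral RNA and is induced by interferon, was present in 17 and 0 cells with a difference of 2.88. With a pseudocount of 10 that difference was 1.45. Stat2, a signal transducer of the interferon response, was at 0.34 and 0.46. Of 14 measured chaperone genes 3 were higher (Dnajb1, Dnajc7 and Cct4) and 3 lower (Hsp90aa1, Hsp90ab1 and Tcp1), so cytosolic chaperones had no common direction. Hsp90aa1 was 0.75 higher among the cells numbered 1 to 21.

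Among Notch and BMP genes 3 of 24 were measured. Smad5, a transducer of BMP signals, was present in 5 and 23 cells with a difference of -3.75, which was 3.79 among the cells numbered 1 to 21. The receptor gene Bmpr2 was at 1.91 and 0.47, and Notch1 at 0.15 in both. Of 3 measured immediate early genes none was at least 2 apart: Ier2 was at 0.13 and 1.75, Junb at 0.27 and 0.10 (-0.62 among the cells numbered 1 to 21), and Nr4a1 at 0.05 and 0.01.

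**Figure D5:**
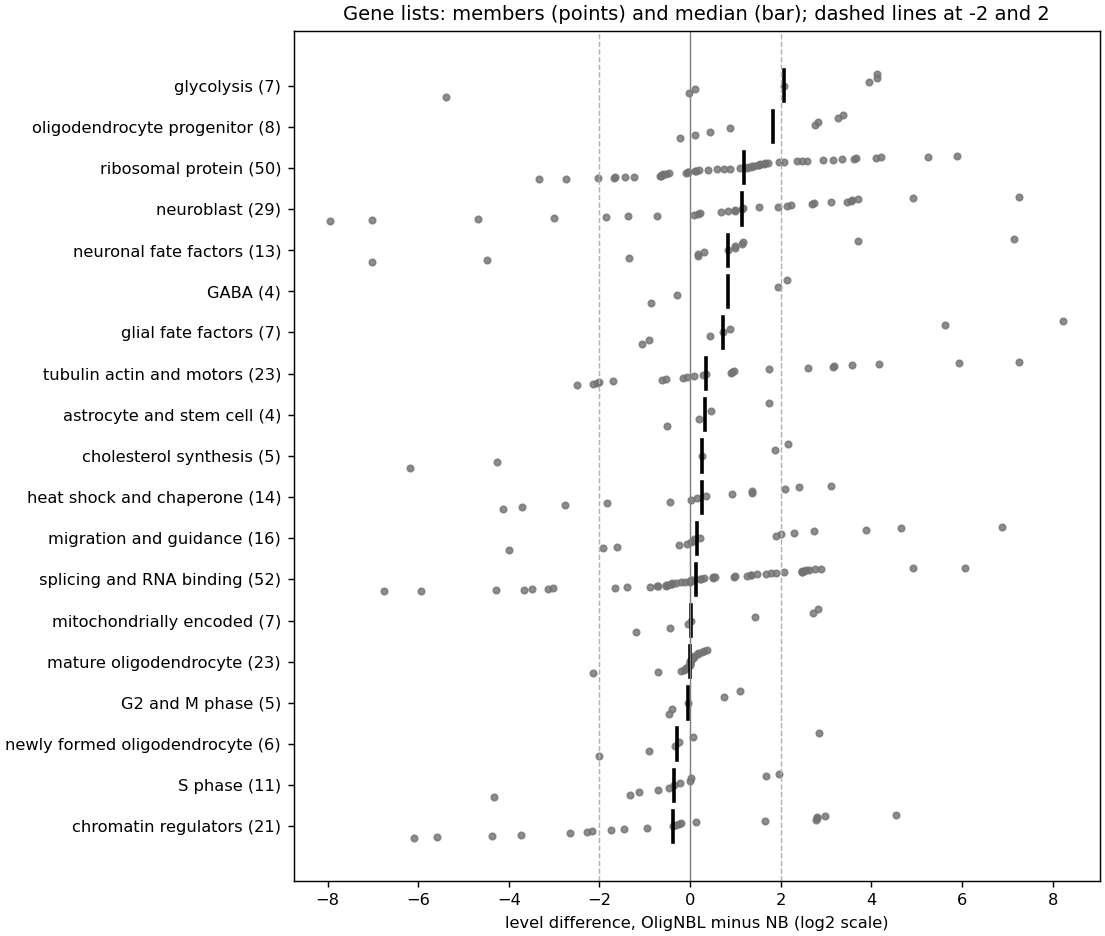
Difference of levels (OligNBL minus NB, log2 scale) of every measured gene (points) in the gene lists, with the median of each list as a black bar, a line at 0 and dashed lines at -2 and 2; the number of measured genes is in brackets. Glycolysis (median 2.08) and progenitor genes (1.83) have the highest medians shown, and most lists hold genes past 2 on both sides.

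GFP-positive cells of the lesion group (NBL, 27 cells), which share the strain of NB, give levels for the same genes side by side. Nfib was at 10.31 ± 5.59 in NBL, near the 9.97 of OligNBL, and was present in 24 of 27 cells. Plxna2 was at 1.26 and Cspg4 at 0.11 in NBL, near the NB levels of 1.01 and 0.81. Tubb3 (5.57), Pdgfra (2.75) and Stmn1 (6.24) were between OligNBL and NB, and Sp8 (1.74) was nearer to OligNBL. No single one of these 3 populations was thus set apart from the other two by every leading gene, and these levels were not compared by a test.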

How the data were processed

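The authors deposited 1 table of 3422 genes by 155 cells, named estimated counts. The submitters' processing notes name kallisto, limma and GRCm38; the sources used here give no versions, strand or rule for the selection of genes. The deposited values behaved as a normalized signal: the top 8 values were equal in all cells and column totals of the 77 cells differed by 0.101%, so no count test was made, and a difference of log2(signal + 1) understates that of low genes. The top 10 genes took up 75.5% of the total signal in the median cell.

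Groups follow the population name in the labels; no cell was removed from levels, and 2 NB cells with fewer than 500 genes above 0 were left out of presence. In 1 NB cell the lowest value, 0.00585 for 3069 genes, was set to 0, a choice made after seeing the data. Called means a difference of at least 2, with no filter on low values. Genes named in the text were, in each direction, the 12 with the largest difference in presence among genes called and of the same sign in cells numbered 1 to 21 and later, up to 4 members per list with the largest difference, and a fixed set of 24, of which 23 were measured. A few genes chosen in this way are left out of the text. Members and lists were chosen with earlier results of these data known. Shares have exact Clopper-Pearson 95% intervals, and 0 cells allows up to 3 of the total; both cover counting error only and treat cells as independent. GENCODE vM21 places 118 of 120 named genes on GRCm38, and 45 had an exon overlapping another gene. Promoters came from RefSeq GRCm38.p6, with 2497 matched by symbol. Only the level step was run on simulated data, with levels shuffled across cells and a known shift added on the log2 scale. That run checks the arithmetic of the difference, and does not cover presence, runs or normalization. Alternatives covered the pseudocount (10), the called difference, run weighting, cell numbers, cells with at least 1000 genes, a minimum mean signal of 5 per 1000000, presence within the 200 highest or above the lowest value, and leaving out each run. Scripts ran under Python 3.11.15 with pandas 2.3.3, numpy 2.4.6, matplotlib 3.10.9 and scipy 1.17.1.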

Additional observations from a re-analysis of the deposited data

How the results depend on the processing

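No paired analysis was possible because each sample is a single cell, the bracketed numbers only name cells, and no test was made. Higher genes, 12.8% of the table, were 4.65% with a pseudocount of 10, 27.5% at a difference of at least 1 and 5.9% at least 3. Lower genes, 12%, were 5.79% with a pseudocount of 10, 7.07% among cells numbered 1 to 21, 18.9% at least 1 and 6.6% at least 3. With a pseudocount of 10 list medians moved to -0.0843 for newly formed oligodendrocyte, -0.0783 for S phase, 0.79 for glycolysis and 0.46 for ribosomal protein genes. Medians are called moved when they changed by more than the SD between medians of OligNBL runs, each set against all NB cells. Changes within that SD could still be large. The progenitor median, 1.83, was 0.93 with that pseudocount, 0.76 among cells numbered 1 to 21 and 2.79 with a minimum signal of 5. The neuroblast median, 1.16, was 0.54 with a pseudocount of 10.

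Among cells numbered 1 to 21 medians moved to 0.49 (newly formed oligodendrocyte), 2.25 (glial fate), -0.0028 (neuronal fate), 1.48 (migration), -0.0454 (S phase), 0.73 (cholesterol), 0.0328 (chromatin), 0.12 (ribosomal), 0.70 (mitochondrial) and 0.90 (astrocyte and stem cell). With a minimum signal of 5 they moved to 0.99 (migration), 3.95 (glycolysis), -1.20 (cholesterol), -0.96 (chromatin), 1.44 (mitochondrial), 0.97 (splicing) and 0.91 (tubulin, actin and motors). In cells with at least 1000 genes they were 0.62 (migration) and -0.67 (chromatin), and with runs weighted equally 0.36 (splicing). Cells with both gene groups moved from 77.5% to 42.5% (200 highest) and 100% (above the lowest value) in OligNBL, and from 25.7% to 10.8%, 70.3% and, among cells 1 to 21, 100% in NB.

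Leaving out 1 run at a time gave 12.6% to 14.2% higher and 10.7% to 13% lower genes. List medians then ran from 0.0935 to 0.98 (migration), -0.65 to -0.30 (chromatin), 0.78 to 1.29 (ribosomal), -0.033 to 0.68 (mitochondrial), 0.0497 to 0.29 (splicing), 0.23 to 0.65 (chaperone) and 0.00 to 0.85 (tubulin, actin and motors).

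Signs turned among cells 1 to 21 for 10 of 74 reported genes at least 2 apart: Ptprz1 (-3.73), Kif21a (0.64), Tcf4 (-2.29), Gapdh (1.70), Dhcr7 (0.48), Smarce1 (0.33), Smarca2 (-0.65), Smad5 (3.79), Hsp90aa1 (0.75) and Dync1li2 (-1.06). The cause was not tested. No sign turned in the other settings, and 31 of the 74 were under 2 among cells 1 to 21, 16 with a pseudocount of 10 and 8 with some run left out. Those 8 are Kif21a, Tubb4a, Gad2, Insig1, mt-Co1, mt-Co3, Celf3 and Hsp90aa1 (-1.91 without NB cells CRBT34 to CRBT40). The 16 with that pseudocount are Pdgfra, Lhfpl3, Ptprz1, Mpzl1, Kif21a, Tubb4a, Meis2, Gad2, Insig1, mt-Co1, mt-Co3, Ifit1, Hsp90ab1, Hsp90aa1, Nrep and Celf3. The reported genes that kept their sign but were under 2 among cells 1 to 21 also include Tubb4a, Insig1, mt-Co1, mt-Co3, Tcp1, Dnajc7 and Tubb2b.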
